A study of Mus musculus with 26 samples.

Results

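The supernatant RNA of the preoptic area was compared between 3 pools of castrated male mice and 4 pools of intact males. These 7 libraries were chosen by their labels alone and are 7 of the 26 libraries of the study. The study crossed GnRH-Cre males with females that carry a floxed-stop L10a-GFP allele, both homozygous, so that in the offspring GnRH neurons, which release gonadotropin-releasing hormone, make a ribosomal protein L10a tagged with GFP. Punches of the preoptic area from adults of 55 to 165 days were put through translating ribosome affinity purification, which gave an immunoprecipitate enriched for GnRH neurons and a supernatant depleted of them. All 7 libraries carry the same genotype and differ in treatment: the castrated males were orchidectomized and the intact males kept their testes. Per the labels, serum LH served to check the steroid state, and the time since surgery is not given in the sources used here. Castrated pools 0, 1 and 2 and intact pools 2 and 3 held 5 mice each, and intact pools 0 and 1 held 7 each.

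In males, testosterone from the testes reaches the preoptic area, where it acts as an androgen or, after aromatase has turned it into estradiol, through estrogen receptors. Steroid receptors are transcription factors, and the progesterone receptor gene is among the classic estrogen-induced genes of this region. Kisspeptin neurons of the rostral periventricular preoptic area excite GnRH neurons, and their Kiss1 transcript is known to depend on gonadal steroids, with more such neurons in females than in males. Castration removes the testicular steroids and with them the negative feedback on LH.

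Total counts ran from 36346000 to 52980000 in the intact and from 45581000 to 47556000 in the castrated pools. Libraries are numbered in the labels, and intact pools 0 and 1 fall among numbers 1 to 10, whereas intact pools 2 and 3 and all castrated pools fall among 11 to 30. Intact pools 2 and 3 (the later intact pools) did not overlap pools 0 and 1 in 4078 genes where they were lower (24.9% of 16360 tested) and 5408 where they were higher (33.1%), so the main values are given also against the later intact pools alone. The summed level of the 7 blood markers was 3322 CPM (counts divided by the TMM-adjusted library size, the unit of every level here) in intact pool 3, 48.4 to 73.9 CPM in the other intact pools and 53.5 to 63.2 CPM in the castrated pools. The 18 pan-neuronal markers summed to 10426 to 11523 CPM in intact and 10761 to 11448 CPM in castrated pools, and none of them was at 0. Gnrh1 itself was still present in the supernatants, at 55.4, 232.5, 103.2 and 103.6 CPM in intact pools 0 to 3 and 109.9, 62.8 and 48.4 CPM in castrated pools 0 to 2. The groups overlapped for Gnrh1.

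The comparison asked which transcripts around the GnRH neurons differ once testicular steroids are gone. Kiss1 and Pgr were the genes of lowest p, both lower in every castrated pool than in any intact pool. The quasi-likelihood test of edgeR with Benjamini-Hochberg adjustment over 16360 genes called 0 genes higher and 0 lower (0.0% in each direction) at an adjusted p under 0.05. At an unadjusted p under 0.05 it gave 307 genes lower (1.88%) and 139 higher (0.85%). Together these were 446 genes (2.73%), below the 5% that this threshold gives where no gene differs. DESeq2 called 5 genes, all lower (0.0306% of 16346 with an adjusted p): Kiss1, Pgr, Lamb3, Apoc3 and Fam83h. With limma voom 0 genes passed (532, or 3.25%, at an unadjusted p under 0.05). In edgeR 0 passed against the later intact pools alone (1255, or 7.45% of the 16839 tested there, at an unadjusted p under 0.05). Groups did not overlap in CPM for 690 genes that were lower (4.22%) and 423 that were higher (2.59%) in the castrated pools. The 12 genes of lowest p in each direction whose groups did not overlap and whose mean was at least 1 CPM are named here with members of gene lists, so the separation of those 24 is part of their choice. A bulk punch does not show whether fewer cells of a type or less RNA per cell lies behind a lower level.

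Kiss1 encodes the precursor of kisspeptin, a strong activator of GnRH neurons, and lies on chromosome 1 (mm10, 133321875 to 133329901, plus strand). It measured 3.12, 3.92, 2.16 and 2.33 CPM in intact pools 0 to 3 and 0.864, 0.608 and 0.616 CPM in castrated pools 0 to 2. Every castrated pool lay below every intact pool, and the later intact pools lay below the earlier ones. The castrated mean of 0.696 ± 0.146 CPM (SD, n = 3) was 24.1% of the intact mean of 2.88 ± 0.81 CPM (SD, n = 4), a 4.11-fold lower level. The log2 fold change was -2.04 ± 0.33 (SE), with an adjusted p of 0.285 by edgeR's quasi-likelihood test, and DESeq2 gave -2.06 with an adjusted p of 3.5e-06. Against the later intact pools alone it was -1.63 (edgeR adjusted p 0.194), and with a term for the library numbering -1.60 (edgeR adjusted p 0.058). Leaving out any 1 library moved it between -2.23 and -1.86, and leaving out intact pool 3, the pool with the blood markers, gave -2.13 for Kiss1. The edgeR adjusted p was 0.277 or more in each of these fits, and Kiss1 did not pass with voom either.

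These Kiss1 levels rest on 98 to 148 counts per intact pool and 28 to 40 per castrated pool. In GENCODE the exons of Kiss1 lie within those of a predicted read-through gene on the same strand, Gm28040, and 13.1% of its exon bases are shared with Golt1a, which measured 0.0883 to 0.159 CPM in intact and 0.0217 to 0.13 CPM in castrated pools.

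Pgr encodes the progesterone receptor, a steroid-activated transcription factor, and lies on chromosome 9 (8899833 to 8968611, plus strand). It measured 41.9, 38.7, 39.2 and 36.6 CPM in intact pools 0 to 3 and 25.7, 26.2 and 29.2 CPM in castrated pools 0 to 2. The groups were apart by more than the whole range within either, and here the earlier and later intact pools overlapped. The castrated mean was 27 ± 1.88 CPM (SD, n = 3), 69.1% of the intact mean of 39.1 ± 2.21 CPM (SD, n = 4). The log2 fold change was -0.53 ± 0.10 (SE; edgeR adjusted p 0.641), against an adjusted p of 8.77e-05 with DESeq2. It was -0.44 against the later intact pools and between -0.59 and -0.50 with any 1 library left out (edgeR adjusted p 0.91 or more in each such fit).

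**Figure D1:**
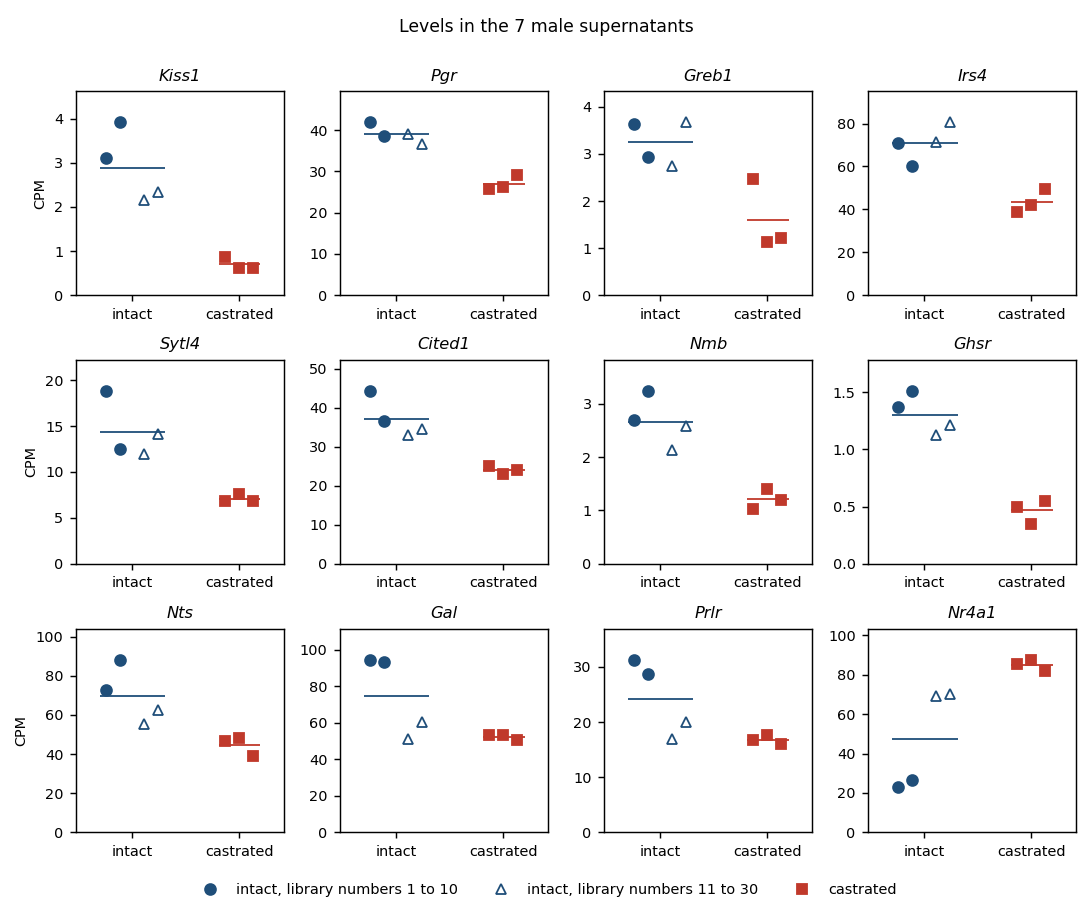
Levels in CPM (linear axes from 0) of 12 genes in each of the 7 male supernatants, with filled circles for intact pools 0 and 1, open triangles for intact pools 2 and 3, squares for castrated pools and lines at the group means. Kiss1, Pgr, Greb1, Irs4, Sytl4, Cited1, Nmb, Ghsr and Nts have no castrated pool within the intact range, whereas for Gal and Prlr the castrated pools sit with the later intact pools, and Nr4a1 is low in the earlier intact pools.

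Greb1, a gene induced by estrogen in breast and reproductive tissue, is shown with Pgr by the sequence before its start, since estrogen receptors are known to bind DNA at the palindrome GGTCANNNTGACC, of which GGTCA or TGACC is a single arm. The sequences are from RefSeq, build GRCm38.p6, 250 bases ending at the base before the annotated start, in lower case with any match to GGTCA or TGACC in capitals. Pgr is chr9:8899583-8899832, plus strand, and Greb1 is chr12:16800887-16801136, minus strand.
Pgr: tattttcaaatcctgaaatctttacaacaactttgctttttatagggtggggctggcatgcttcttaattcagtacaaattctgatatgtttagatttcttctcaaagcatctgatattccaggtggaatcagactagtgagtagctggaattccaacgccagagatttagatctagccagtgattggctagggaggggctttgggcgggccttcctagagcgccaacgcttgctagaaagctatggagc
Greb1: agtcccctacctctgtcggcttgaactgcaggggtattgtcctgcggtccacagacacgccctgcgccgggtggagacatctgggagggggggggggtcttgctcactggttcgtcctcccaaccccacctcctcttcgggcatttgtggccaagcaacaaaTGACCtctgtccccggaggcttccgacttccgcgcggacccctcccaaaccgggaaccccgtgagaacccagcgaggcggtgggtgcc
The Pgr window held no match to either arm, which says only that these letters are not in this window. The Greb1 window held 1 match, 88 bases before the start. RefSeq gives Greb1 a second start, not printed because its window overlaps an annotated exon (chr12:16757240-16757489), which held 2 matches, 194 and 85 bases before that start. Among 32851 such windows of all genes, 35.2% held an arm on either strand and 0.0639% (21 windows) the whole palindrome, which contains both arms. The palindrome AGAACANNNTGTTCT, known to be bound by the progesterone receptor, was in 0.00913% of windows (3), and its arm AGAACA or TGTTCT in 16.1%. Of the 12 lower genes of lowest p described here, 8 had windows, 11 windows in all. Of these 11, 4 held GGTCA or TGACC (in 3 genes, Cited1, Kiss1 and Slc25a47), 1 held AGAACA or TGTTCT (Nmb) and 0 held a whole palindrome. The Kiss1 window overlaps annotated exons of Gm28040 by up to 77 bases, and its matches lay 65 and 36 bases before the start. Of the 12 higher genes, 10 had windows, 10 windows in all, of which 5 held GGTCA or TGACC, 1 held AGAACA or TGTTCT and 0 held a whole palindrome.

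Among 18 steroid receptors and coregulators, 6 were lower in every castrated pool (33.3%, against 4.22% of all tested genes) and 0 were higher (against 2.59%). This and the other lists were drawn up with earlier results of these data known, and this one holds Pgr, so the count is no independent evidence of a direction. The lists share members, Pgr, Kiss1, Greb1, Nrip1 and Cyp19a1 among them, so their counts are not separate results. The median log2 fold change of the 18 was -0.20, and -0.24 against the later intact pools, beside -0.00 and 0.02 over all tested genes. Besides Pgr the 6 included Esr2, Ncoa3, Nrip1 and Cited1, and 4 of the 6 had an unadjusted p under 0.05. Nrip1, a corepressor of nuclear receptors (also known as RIP140), measured 27.4, 26.9, 27.8 and 26.6 CPM in intact pools 0 to 3 and 22.2, 19.9 and 22.8 CPM in castrated pools 0 to 2. The 4 intact pools lay close together and the castrated pools below them (log2 -0.33 ± 0.11 SE, edgeR adjusted p 1). Ncoa3, a coactivator of steroid receptors (SRC-3), measured 15.7, 14.9, 17.6 and 19.5 CPM in the intact pools and 12.4, 12.8 and 14.2 CPM in the castrated pools. It was lower in the castrated pools (log2 -0.37) although the later intact pools were above the earlier ones.

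Cited1, a transactivator that binds CBP and p300 and is known as a coactivator of estrogen receptor alpha, measured 44.2, 36.6, 33.0 and 34.4 CPM in intact pools 0 to 3 and 25.1, 22.9 and 23.9 CPM in castrated pools 0 to 2. The castrated pools lay close together and below all intact pools (log2 -0.63 ± 0.15 SE, edgeR adjusted p 1), and against the later intact pools the difference was -0.44. Esr1, estrogen receptor alpha, overlapped between the groups (0.23 ± 0.31 SE). Esr2, estrogen receptor beta, measured 2.32, 1.86, 1.83 and 1.82 CPM in the intact and 1.56, 1.54 and 1.36 CPM in the castrated pools (-0.40 ± 0.32 SE).

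Of 31 genes listed as steroid-regulated in the preoptic area and hypothalamus, 7 were lower in every castrated pool (22.6%, against 4.22% of all tested genes) and 2 were higher (6.45%, against 2.59%), with a median log2 of -0.12, and -0.04 against the later intact pools. A log2 fold change below 0 was found in 23 of the 31 (50.3% of all tested genes) and one above 0 in 8 (49.7%). The 7 lower ones were Kiss1, Pgr, Greb1, Irs4, Sytl4, Cyp19a1 and Nts. Irs4, an adaptor downstream of the insulin receptor that is abundant in the hypothalamus, measured 71.0, 60.0, 71.4 and 80.5 CPM in intact pools 0 to 3 and 38.9, 42.1 and 49.3 CPM in castrated pools 0 to 2. All castrated pools lay clear of all intact pools, and the earlier intact pools were below the later ones (log2 -0.70 ± 0.23 SE, edgeR adjusted p 1; -0.75 against the later intact pools). Greb1 measured 3.64, 2.94, 2.74 and 3.67 CPM in the intact and 2.46, 1.13 and 1.21 CPM in the castrated pools. Castrated pool 0 stood well above the other 2 castrated pools, and the log2 of -1.02 ± 0.34 (SE) became -1.47 without it.

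Sytl4 encodes granuphilin, which docks dense-core granules for release, and its gene lies on the X chromosome. It measured 18.8, 12.5, 11.9 and 14.1 CPM in intact pools 0 to 3 and 6.81, 7.54 and 6.82 CPM in castrated pools 0 to 2. The castrated level was 49.3% of the intact one (log2 -1.02 ± 0.29 SE, edgeR adjusted p 1), and -0.82 against the later intact pools. Cyp19a1, which encodes aromatase, was near the limit of what 13 to 40 counts per library can show, at 1.03, 0.636, 0.861 and 0.719 CPM in the intact and 0.281, 0.521 and 0.616 CPM in the castrated pools. Its groups did not overlap, though intact pool 1 and castrated pool 2 were nearly level (log2 -0.77 ± 0.45 SE). Of 14 tested genes of steroid synthesis and metabolism, Cyp19a1 was the 1 lower in every castrated pool (7.14%, against 4.22% of all tested genes) and 2 were higher (14.3%, against 2.59%): Srd5a3 (0.25), a steroid reductase, and Star (0.25), which carries cholesterol into mitochondria. Of 24 tested androgen or estrogen targets known from other tissues, 4 were lower in every castrated pool (16.7%, against 4.22% of all tested genes) and 1 was higher (4.17%, against 2.59%). The 4 were Greb1, Pgr, Nrip1 and Odc1, the last encoding ornithine decarboxylase (-0.23 ± 0.09 SE). Greb1, Pgr and Nrip1 were already counted in the lists above.

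Of 30 neuropeptide genes, 3 were lower in every castrated pool (10%, against 4.22% of all tested genes) and 1 higher (3.33%, near the 2.59% of all), and the median log2 was -0.07, turning to 0.29 against the later intact pools. Nts, which encodes neurotensin, measured 72.7, 88.2, 55.6 and 62.3 CPM in intact pools 0 to 3 and 46.9, 48.1 and 39.1 CPM in castrated pools 0 to 2. The castrated pools were below all intact pools, and the later intact pools below the earlier ones, so that the log2 of -0.64 ± 0.20 (SE, edgeR adjusted p 1) became -0.34 against the later ones. Nmb, which encodes neuromedin B, measured 2.69, 3.24, 2.14 and 2.59 CPM in the intact and 1.02, 1.41 and 1.19 CPM in the castrated pools. The castrated level was 45.3% of the intact one (log2 -1.14 ± 0.30 SE), and 20.6% of the exon bases of Nmb are shared with Sec11a, itself at a log2 of 0.02. Ghrh, which encodes growth hormone-releasing hormone, was at -0.62 ± 0.26 SE. Of 14 markers of supraoptic, paraventricular, suprachiasmatic and arcuate neurons, Ghrh and Kiss1 among them, 3 were lower in every castrated pool (21.4%, against 4.22% of all tested genes), 11 were below 0 and the median was -0.27, turning to 0.09 against the later intact pools. Their summed level was 649.1, 402.1, 320.0 and 289.5 CPM in intact pools 0 to 3 and 408.3, 411.5 and 420.1 CPM in castrated pools 0 to 2, highest in intact pool 0 with the castrated pools inside the intact range. The part of these neurons in the peptide levels was not tested. Penk, which encodes proenkephalin, was the 1 higher gene, at 313.6, 339.8, 303.6 and 220.8 CPM in the intact and 398.0, 366.2 and 350.4 CPM in the castrated pools (0.34 ± 0.26 SE).

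Tac1, which encodes substance P and neurokinin A, measured 114.5, 122.0, 160.2 and 103.1 CPM in intact pools 0 to 3 and 223.0, 213.6 and 151.0 CPM in castrated pools 0 to 2. Castrated pool 2 lay below intact pool 2, so the groups overlapped (log2 0.65 ± 0.27 SE). Gal, which encodes galanin, measured 94.6, 93.5, 51.0 and 60.7 CPM in the intact and 53.2, 53.3 and 50.6 CPM in the castrated pools. The castrated pools stood with the later intact pools, and the log2 of -0.52 became -0.04 against these. Prlr, the prolactin receptor, had the same shape, at 31.3, 28.7, 16.9 and 20.1 CPM in the intact and 16.8, 17.7 and 16 CPM in the castrated pools (-0.53, and -0.09 against the later intact pools). For both genes the difference was thus near 0 within library numbers 11 to 30.

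Among 41 receptors for neuropeptides and prolactin, 2 were lower in every castrated pool (4.88%) and 1 was higher (2.44%), close to the shares over all genes. Ghsr, the ghrelin receptor, measured 1.37, 1.51, 1.13 and 1.21 CPM in intact pools 0 to 3 and 0.497, 0.348 and 0.552 CPM in castrated pools 0 to 2. The highest castrated pool was under the lowest intact pool by more than the spread within either group (log2 -1.48 ± 0.48 SE, edgeR adjusted p 1), on 16 to 26 counts per castrated and 51 to 64 per intact pool. Mc4r, a melanocortin receptor, measured 9.09, 9.55, 6.52 and 6.17 CPM in the intact and 5.73, 5.91 and 4.46 CPM in the castrated pools, and its log2 of -0.54 became -0.19 against the later intact pools. Npy2r, a receptor for neuropeptide Y, was higher in every castrated pool (19.5 to 21.8 CPM) than in any intact pool (11.3 to 19.1 CPM), with a log2 of 0.41 that became 0.79 against the later intact pools.

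Of the 9 tested genes of kisspeptin, neurokinin B and dynorphin signalling, Kiss1 was the 1 lower in every castrated pool (11.1%, against 4.22% of all tested genes). Kiss1r, the kisspeptin receptor, stood at 8.55 to 11.8 CPM in the intact and 10.4 to 12.2 CPM in the castrated pools (log2 0.09). Tac2, which encodes neurokinin B, measured 20.1, 17.8, 11.1 and 11.1 CPM in the intact and 13.7, 13.4 and 12.9 CPM in the castrated pools, so that its -0.17 turned to 0.32 against the later intact pools. Pdyn, which encodes dynorphin, was at 0.06, with all castrated pools inside the intact range. Npffr2, a receptor for RFamide peptides, was the 1 gene higher in every castrated pool (11.1%, against 2.59% of all tested genes). It measured 0.361 to 0.478 CPM in the castrated and 0.159 to 0.331 CPM in the intact pools (log2 0.97 ± 0.47 SE). All these levels lay below the lowest castrated level of Kiss1 (0.608 CPM), so Npffr2 is at the limit of this depth.

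The remaining lower genes of lowest p had other roles. Lamb3, the laminin beta 3 chain, measured 10.9, 9.79, 13.3 and 10.8 CPM in intact pools 0 to 3 and 6.81, 6.26 and 6.06 CPM in castrated pools 0 to 2. The castrated pools lay close together and below all intact pools (log2 -0.81 ± 0.16 SE, edgeR adjusted p 0.726, DESeq2 adjusted p 0.00151). Lama5, the laminin alpha 5 chain, was at -1.05 and Adamts16, a secreted metalloproteinase, at -1.04. Pappa, a secreted protease that cleaves insulin-like growth factor binding proteins, measured 2.40, 2.52, 2.30 and 2.87 CPM in the intact and 1.43, 0.978 and 1.47 CPM in the castrated pools (log2 -0.97). Apoc3, an apolipoprotein, measured 4.03, 3.26, 2.16 and 2.74 CPM in the intact and 1.23, 1.41 and 0.999 CPM in the castrated pools (log2 -1.32, edgeR adjusted p 0.883, DESeq2 adjusted p 0.0264). Fam83h (-0.79, DESeq2 adjusted p 0.0269) and Slc25a47 (-0.55), a mitochondrial carrier, complete the 12 lower genes.

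Of the 12 higher genes chosen as above, Pttg1 had the lowest p. It encodes securin, which restrains the separation of sister chromatids, and measured 14.7, 10.4, 20.7 and 15 CPM in intact pools 0 to 3 and 29.2, 28.9 and 27.2 CPM in castrated pools 0 to 2. The castrated pools were close to each other and above every intact pool (log2 0.90 ± 0.21 SE, edgeR adjusted p 1; 0.73 against the later intact pools). Gjb6, the astrocyte gap junction protein connexin 30, measured 22.2, 33.7, 28.8 and 31.2 CPM in the intact and 60.1, 62.2 and 33.8 CPM in the castrated pools. Castrated pool 2 was level with intact pool 1, and the log2 of 0.85 was 1.08 without it. The other 10 were Hhex (0.81), Mmp2 (0.73), Cd53 (0.69), Igtp (0.53), Gpr3 (0.52), Acsf2 (0.51), Apold1 (0.46), Fosl2 (0.43), Serpinb1a (0.40) and Tspan5 (0.29). Among these Hhex is a homeobox factor, Mmp2 a matrix metalloproteinase, Cd53 a tetraspanin of leukocytes and Igtp an interferon-induced GTPase. Acsf2 is an acyl-CoA synthetase, Fosl2 a subunit of the AP-1 transcription factor, Serpinb1a a protease inhibitor and Apold1 an early response gene of endothelial cells.

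**Figure D2:**
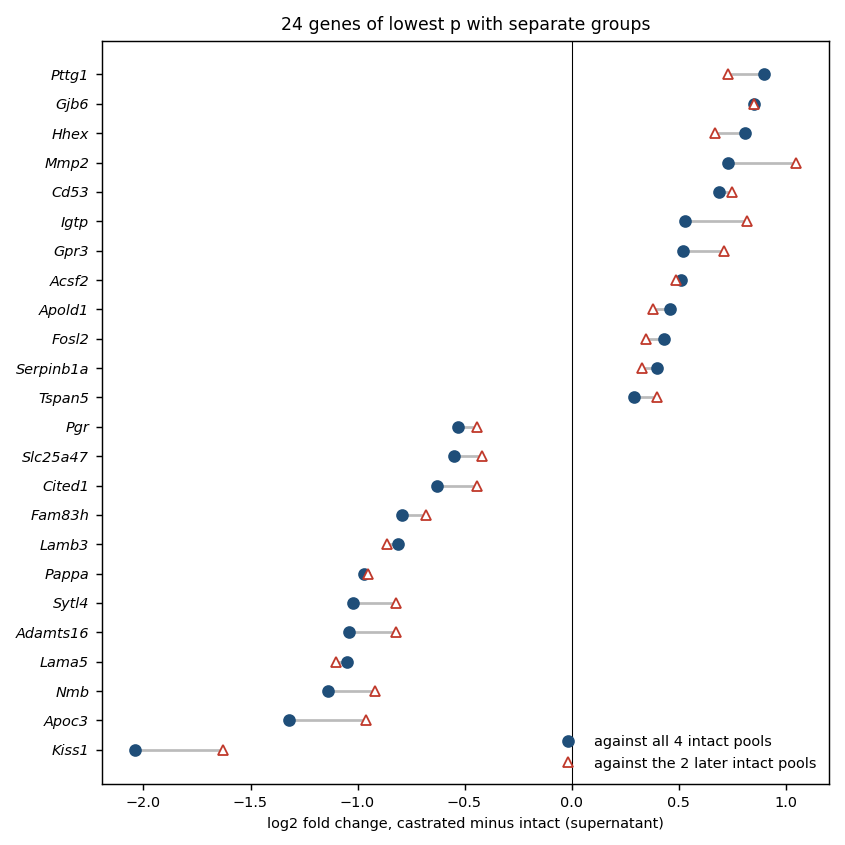
Log2 fold change (castrated minus intact supernatant) of the 12 lower and 12 higher genes of lowest p whose groups did not overlap, with circles against all 4 intact pools and triangles against intact pools 2 and 3 alone. The choice of genes fixes their side of 0 here, and Kiss1 moves from -2.04 to -1.63 and Mmp2 from 0.73 to 1.05.

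For 9 of the 24 genes (5 lower and 4 higher) the later intact pools lay on the castrated side of the earlier ones, as for Kiss1, Apoc3, Cited1, Nmb and Adamts16 among the lower. For the other 15, Pgr and Lamb3 among them, they did not. Over all tested genes the later intact pools lay below the earlier ones in 24.9% and above them in 33.1%. Such a shift was thus common and is no particular trait of the 24 genes.

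The immediate early genes, which neurons switch on soon after activation, differed between the earlier and the later intact pools. Of 23, 5 were higher in every castrated pool (21.7%, against 2.59% of all genes) and 0 lower, and the median log2 was 0.34, but against the later intact pools the median was 0.01. Nr4a1, a nuclear receptor induced by activity, measured 22.9, 26.8, 69.2 and 70.0 CPM in intact pools 0 to 3 and 85.6, 87.6 and 81.7 CPM in castrated pools 0 to 2. The later intact pools were nearer to the castrated pools than to the earlier intact ones (log2 0.85 ± 0.34 SE; 0.34 against the later intact pools). Fos measured 20.2, 20.8, 46.2 and 59.1 CPM in the intact and 45.7, 48.9 and 57.3 CPM in the castrated pools, with -0.00 against the later intact pools. Egr1 measured 87.3, 110.9, 229.3 and 188.5 CPM in the intact and 200.8, 205.8 and 201.8 CPM in the castrated pools, with 0.01 against the later intact pools. Jun was 1 of the 5 higher genes, with a log2 of 0.18 that was 0.20 against the later intact pools.

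Among 18 glucocorticoid-responsive genes, 2 were lower in every castrated pool (11.1%, against 4.22% of all tested genes) and 0 higher (against 2.59%), with a median of -0.04. Plin4, a lipid droplet coat protein, measured 1.88, 2.17, 0.972 and 2.12 CPM in intact pools 0 to 3 and 0.886, 0.652 and 0.914 CPM in castrated pools 0 to 2. Intact pool 2 stood just above the castrated pools (log2 -1.12 ± 0.38 SE). Zbtb16, a zinc finger factor, was at -0.64 ± 0.27 SE, and Fkbp5, a chaperone induced by glucocorticoids, overlapped (-0.29). Of 18 clock genes 3 were lower in every castrated pool (16.7%, against 4.22% of all tested genes), and Per3 was the 1 with an unadjusted p under 0.05 (-0.39 ± 0.17 SE).

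Markers of several non-neuronal cell types had medians above 0, none with a member past the adjusted threshold in edgeR. The median log2 was 0.36 for 16 markers of microglia and macrophages, 0.31 for 16 of endothelial and mural cells, 0.14 for 16 of astrocytes and 0.66 for 13 tested of choroid plexus and meninges. Against the later intact pools these medians were 0.60, 0.73, 0.68 and 0.74, while that of the 18 pan-neuronal markers was 0.02 and -0.02. The groups did not overlap, with castrated pools higher, for 2 microglial (12.5%), 3 endothelial and mural (18.8%), 1 astrocyte (6.25%) and 2 choroid plexus and meningeal markers (15.4%), against 2.59% of all tested genes. The median was 0.10 for 16 oligodendrocyte markers and for 8 of their precursors, with 0 markers separate (0.0%) in either list. Against the later intact pools these 2 medians rose as well, to 0.29 and 0.37. Ependymal and tanycyte markers split into 6 above and 6 below 0 (median 0.05, and 0.19 against the later intact pools). Of these 12 markers, 1 was higher in every castrated pool (8.33%, against 2.59% of all tested genes). The 6 tested blood markers had a median of -3.83, which was -0.01 without intact pool 3. Trem2, a microglial receptor, measured 1.5, 2.17, 1.72 and 1.80 CPM in intact pools 0 to 3 and 2.98, 2.48 and 2.72 CPM in castrated pools 0 to 2. Every castrated pool lay above every intact pool (log2 0.60 ± 0.24 SE). Gja1, the astrocyte connexin 43, was at 0.57 with overlapping groups and at 0.96 against the later intact pools.

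The summed microglial markers were 96.3 to 160.2 CPM in intact and 143.0 to 167.4 CPM in castrated pools, and the endothelial and mural ones 75.2 to 289.2 CPM and 167.1 to 191.3 CPM. The summed astrocyte markers were 1369 to 1816 CPM in intact and 1583 to 1844 CPM in castrated pools, and none of the 4 lists had a marker at 0 in all libraries. The 15 choroid plexus and meningeal markers summed to 110.1, 336.1, 176.7 and 326.3 CPM in intact pools 0 to 3 and 380.9, 370.1 and 346.1 CPM in castrated pools 0 to 2, which is the 1 of these sums in which the groups did not overlap. Intact pools 0 and 2 were low and pools 1 and 3 near the castrated level, a split that is not that of the library numbers. Igfbp2, a growth factor binding protein of these tissues, followed it, at 17.6, 87.0, 29.3 and 69.9 CPM in the intact and 94.7, 90.2 and 92.7 CPM in the castrated pools. Cd74, the invariant chain of antigen presentation, did too, at 8.70, 30.9, 13.4 and 34.9 CPM in the intact and 43.0, 42.8 and 46.8 CPM in the castrated pools (log2 1.01 ± 0.44 SE). What part these cells have in the higher genes, Gjb6, Mmp2 and Cd53 among them, was not tested.

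**Figure D3:**
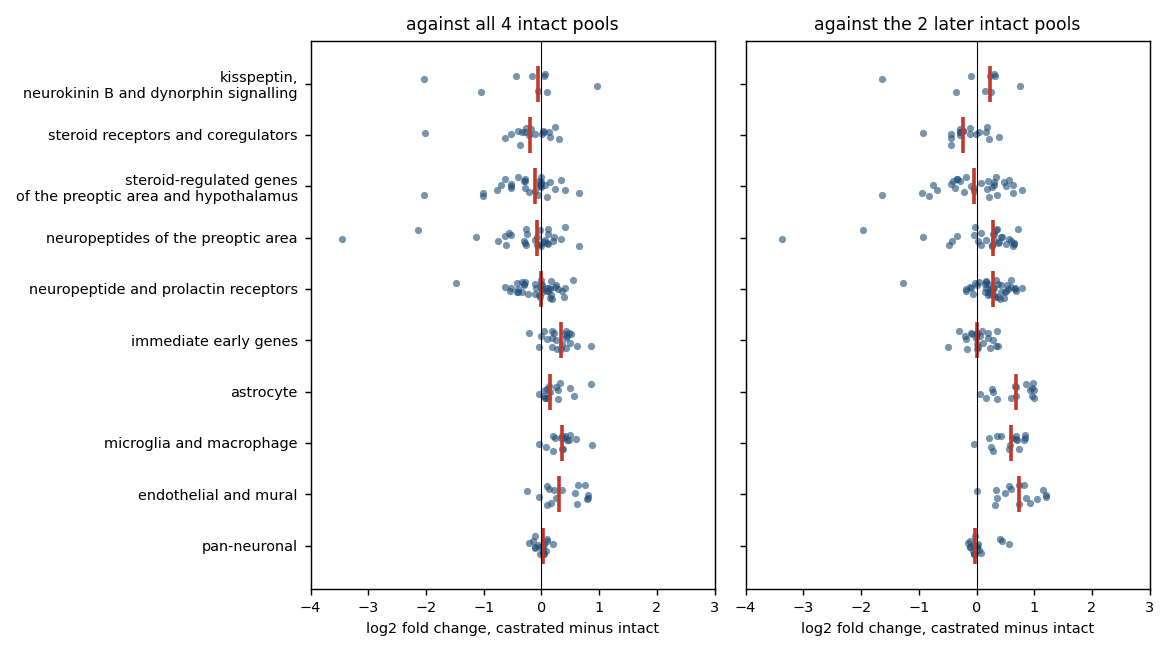
Log2 fold change (castrated minus intact supernatant) of each tested member of 10 gene lists, as points with the list median as a bar, against all 4 intact pools (left) and the 2 later ones (right). The median of the immediate early genes goes from 0.34 to 0.01 and that of the astrocyte markers from 0.14 to 0.68, while that of the steroid receptors and coregulators is -0.20 and -0.24.

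Ovariectomy in the same fit gives the female counterpart, from 3 ovariectomized and 3 intact (diestrous) pools of supernatant. Intact female pools 0 and 1 fall among library numbers 1 to 10 and the other female pools among 11 to 30. Kiss1 measured 19.8, 26.3 and 11 CPM in intact and 4.23, 2.68 and 3.15 CPM in ovariectomized females, with no overlap and with the later intact pool, pool 2, the lowest intact one. The log2 was -2.51 ± 0.31 (SE, edgeR adjusted p 0.00784), the 1 gene lower at an adjusted p under 0.05 there (0.00611% of 16360), and the difference between the effects in the sexes was 0.47 ± 0.44 (SE, edgeR adjusted p 1). Pgr measured 34.4, 35.8 and 35.9 CPM in intact and 28.8, 28.8 and 32.9 CPM in ovariectomized females (log2 -0.23 ± 0.10 SE), and its effect differed from that in males by -0.31 ± 0.14 (SE, edgeR adjusted p 1). Slc25a47 had the opposite sign in females, at 2.95, 2.85 and 3.44 CPM in intact and 5.06, 4.84 and 4.92 CPM in ovariectomized females, against 5.58, 5.28, 4.37 and 5.30 CPM in intact and 3.31, 3.89 and 3.29 CPM in castrated males. The effects differed by -1.23 ± 0.23 (SE), which did not pass (edgeR adjusted p 0.908).

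Of the other genes of the male list, some were less separated in females and some were not. Pappa measured 2.14, 2.30 and 2.66 CPM in intact and 1.06, 1.19 and 1.68 CPM in ovariectomized females, with no overlap. Its log2 was -0.84 in females and -0.97 in males. Sytl4 stood at 8.62, 6.45 and 4.72 CPM in intact and 3.70, 4.95 and 9.82 CPM in ovariectomized females, with overlapping groups (log2 -0.08, difference between the sexes -0.93 ± 0.42 SE, edgeR adjusted p 1). Lamb3 was at -0.10 there (difference -0.71 ± 0.23 SE, edgeR adjusted p 1), and Pttg1 at -0.19 (difference 1.09 ± 0.32 SE, edgeR adjusted p 1). Nts was at -0.78, Irs4 at -0.53, Greb1 at -0.62 and Ghsr at -1.72, each the same sign as in males. In edgeR 0 genes passed for the difference between castration and ovariectomy (0.0%), with 290 (1.77%) at an unadjusted p under 0.05. DESeq2 called 3, all more negative in males.

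**Figure D4:**
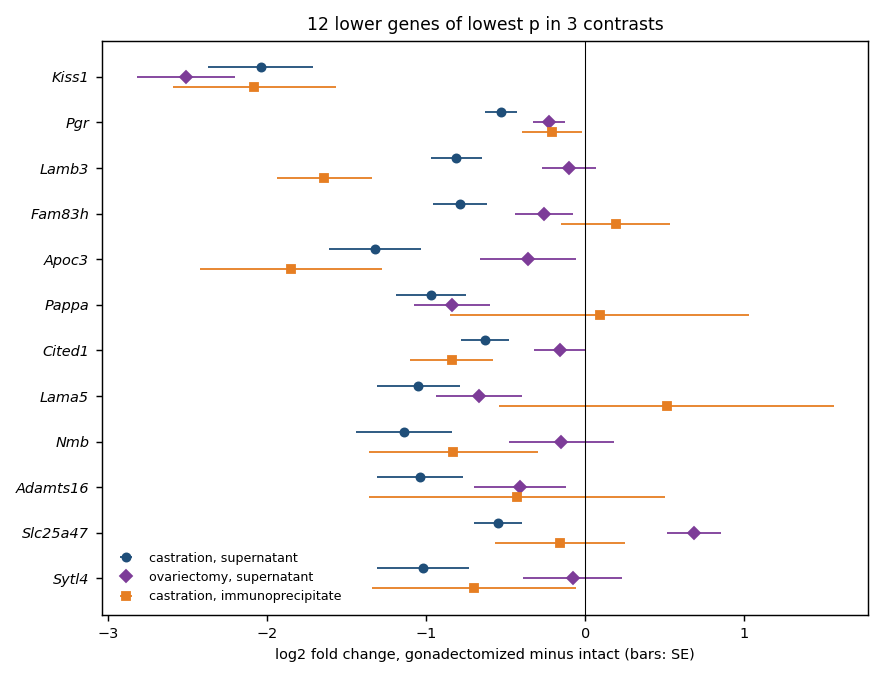
Log2 fold change (gonadectomized minus intact, bars 1 SE) of the 12 lower genes of lowest p in 3 contrasts: castration in the supernatant (circles), ovariectomy in the supernatant (diamonds) and castration in the immunoprecipitate (squares). Kiss1 is near -2 or lower in all 3, while Sytl4 and Nmb are near 0 after ovariectomy and Fam83h, Pappa and Lama5 are above 0 in the immunoprecipitate with wider bars.

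The immunoprecipitates came from the same pools, so both effects share their animals. Kiss1 measured 2.93, 3.20, 2.02 and 2.88 CPM in the immunoprecipitates of intact pools 0 to 3 and 1.43, 0.228 and 0.323 CPM in those of castrated pools 0 to 2, a log2 of -2.08 (edgeR adjusted p 0.0625). Lamb3 measured 17.6, 19.4, 10.4 and 16.2 CPM in the intact and 5.29, 3.32 and 6.73 CPM in the castrated immunoprecipitates, a log2 of -1.64 (edgeR adjusted p 0.0232), 1 of 16 genes lower there at that threshold (0.0957% of 16713). Pgr overlapped there (log2 -0.21), and Irs4 was at 0.02. For the difference between the fractions edgeR called 0 genes (0.0%), with 1364 (8.16%) at an unadjusted p under 0.05, and DESeq2 called 17. Neither of these fits paired the 2 fractions of a pool. With the pool as a block edgeR called 0 genes as well, with 1114 (6.67%) at an unadjusted p under 0.05.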

How the data were processed

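RNA of the preoptic area was amplified with a SMART-Seq kit for low input, which does not mark strand, and sequenced as paired ends, per the labels' protocols. The authors deposited estimated counts per gene. The submitters' processing notes name TopHat2 2.0.9 with Bowtie2 2.1.0, Cuffdiff 2.1.1 with Cufflinks, FastQC and build mm10. Annotation and multi-mapping rules: not given in the sources used here. Overlapping genes are therefore uncertain.

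Of the 23107 genes, those kept by filterByExpr (minimum count 10, minimum total 15) were tested on counts rounded to whole numbers, using TMM factors and edgeR 4.0.16 in R 4.3.3 (quasi-likelihood, two-sided). The fit held all 13 supernatants in 4 groups (all 26 libraries in 8 groups for the immunoprecipitate), with Benjamini-Hochberg adjustment over all tested genes. Each replicate is a separate pool of mice, and no 2 agreed within sampling noise. Between male supernatants of the same group, the chi-square of the counts per degree of freedom was 4.6 for castrated pools 0 and 1. It was 19.06 to 71.47 for every other such pair, so castrated pools 0 and 1 were the closest. The common biological coefficient of variation was 0.181. The code was tested on simulated data. The SD and SE values include the variation between pools.

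The named genes are any called gene, the 12 genes per direction of lowest p with groups that do not overlap and a mean of at least 1 CPM (predicted genes left out), and members of 27 lists (449 genes matched, 434 tested, 6 entries matched through a synonym). Genes of cytosolic ribosomal proteins and the mitochondrial genome are counted and not named. The members and lists were chosen with earlier results of these data known. Alternatives were DESeq2 1.42.0, limma 3.58.1 voom, DESeq2 size factors, no filter, the later intact pools alone, a term for the library numbering, a replicate block, the male supernatants alone and each replicate left out.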

Additional observations from a re-analysis of the deposited data

Results flagged for a closer look

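In 86 groups of 4 intact pools tested for a sample far from the others, 3 were flagged, where chance flags about 1 in 20 groups. Gpr3, a constitutively active G protein-coupled receptor, stood at 4.70 CPM in intact pool 0 and at 3.33 to 3.50 CPM in the other intact pools. Esr2 stood at 2.32 CPM in intact pool 0 and at 1.82 to 1.86 CPM in the others. The summed blood markers stood at 3322 CPM in intact pool 3 and at 48.4 to 73.9 CPM in the others, and their median log2 fold change of -3.83 was -0.01 without that pool.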

How the results depend on the processing

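The count of genes past the adjusted threshold after castration was 0 in edgeR. When 1 replicate at a time was left out, 253 to 592 genes (1.53% to 3.64%) had an unadjusted p under 0.05, with 0 called in each such fit. It was 5 with DESeq2 and 1 with the term for the library numbering. That 1 gene was Gpr37l1, a receptor of glial cells (log2 0.94, edgeR adjusted p 0.0344, against 0.25 with all intact pools and no such term), whose later intact pools stood at 40.2 CPM each. For the difference between castration and ovariectomy DESeq2 gave 3 genes and for that between the fractions 17, and edgeR and voom gave 0 for each. The cause was not tested. The direction of the 24 genes ranked by p is fixed by their choice in the fits that leave out pools, so it shows nothing of their stability there. The direction turned for Kiss1r with the replicate block (-0.00), Pdyn with the replicate block and without intact replicate 3 (-0.05 in each, up to 0.13 without intact replicate 1), Tac2 against the later intact pools (0.32) and with the numbering term (0.35), and Fos against the later intact pools (-0.00). For Avp, which encodes vasopressin and was at -0.02, it turned against the later intact pools (0.51), with the numbering term (0.63), with voom (0.12), without intact replicate 0 (0.37) and without castrated replicate 2 (0.02), and leaving out 1 replicate moved it between -0.23 and 0.37.

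The replicate numbers are shared by both groups. Deviations of same-numbered pools correlated at -0.034, 0.031 and 0.073, within the range of -0.123 to 0.106 for differently numbered pools. With so few pairs these correlations showed no pairing and could not exclude it. With the replicate block 0 genes were called, and 898 (5.49%) had an unadjusted p under 0.05, against 446 (2.73%) without it. Kiss1 was at -2.11 with the block (edgeR adjusted p 0.142). With 3 against 4 pools, genes such as Cyp19a1, at 13 to 40 counts per library, are at the limit of this depth.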
